A study of Homo sapiens with 6 samples.

Results

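The genes described here are 10 genes of the Notch pathway, the receptors NOTCH1, NOTCH2 and NOTCH3, the Jagged ligands JAG1 and JAG2, the nuclear effectors RBPJ and MAML1, and the target genes HES1, HES4 and NRARP. They were chosen by the role of their products, with the rise of NOTCH3 between these same libraries already known, and the question asked of them was whether the target genes moved as well. They are 10 of 58735 rows of the count table, and all 10 were among the 15078 genes tested. Meg-01, an established human megakaryoblast cell line, was left without treatment (control, 3 libraries) or given 500 µM sodium propionate, the salt of the short-chain fatty acid C3 (3 libraries). According to the labels C3 acted for 48 h, whereas no time is labelled for the control libraries. The methods mention both 24 h and 48 h. The study describes the libraries as technical replicates, so any p-value below measures only the spread between libraries, which may be technical. Total counts were 19318595, 18050689 and 16159449 in control replicates 1 to 3, and 16513025, 18652292 and 22821722 in C3 replicates 1 to 3. Control replicate 3 stood apart from the other control libraries on the second principal component (-26.1 against 16.6 and 13.0) and held the lowest control value for 6 of the 10 genes, and for 37.3% of all tested genes.

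Notch receptors span the membrane and are bound by Jagged or Delta-like ligands on a neighbouring cell, after which ADAM metalloproteases and the gamma-secretase complex cut the receptor and free its intracellular domain. In the nucleus this domain joins the DNA-binding protein RBPJ and a Mastermind coactivator such as MAML1, and target genes of the HES and HEY families, which encode repressors, are switched on. The pathway is best known in blood for directing progenitors to the T lymphocyte fate, and it has also been linked to the choice of the megakaryocyte fate.

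Levels are normalized counts, that is counts scaled by edgeR's TMM factors to the mean effective library size. Differences are log2 fold changes of C3 against control with their standard error (SE) from edgeR's quasi-likelihood fit, and the gates are those of the study for its DEGs, a fold change of over 1.3 at an adjusted p-value under 0.01. NOTCH3, HES1, HES4 and NRARP were past the gates in the higher direction, 4 of the 10 genes, where 5.05% of all tested genes were. None of the 10 genes was past them in the lower direction, where 1.47% of all tested genes were. In 6 of the 10 genes every C3 library exceeded every control library (17.5% of all tested genes), and in 1 gene, MAML1, every C3 library was lower (16.9%). The median log2 fold change was 0.27 over the 10 genes and 0.0021 over all tested genes. Because the genes were chosen on this contrast, these counts describe them and were not tested. The lowest raw count of any of the 10 genes in any library was 118, far above the count filter, so none passed it through 1 group alone. In bulk RNA, more cells expressing a gene and more RNA per cell cannot be told apart.

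**Figure D1:**
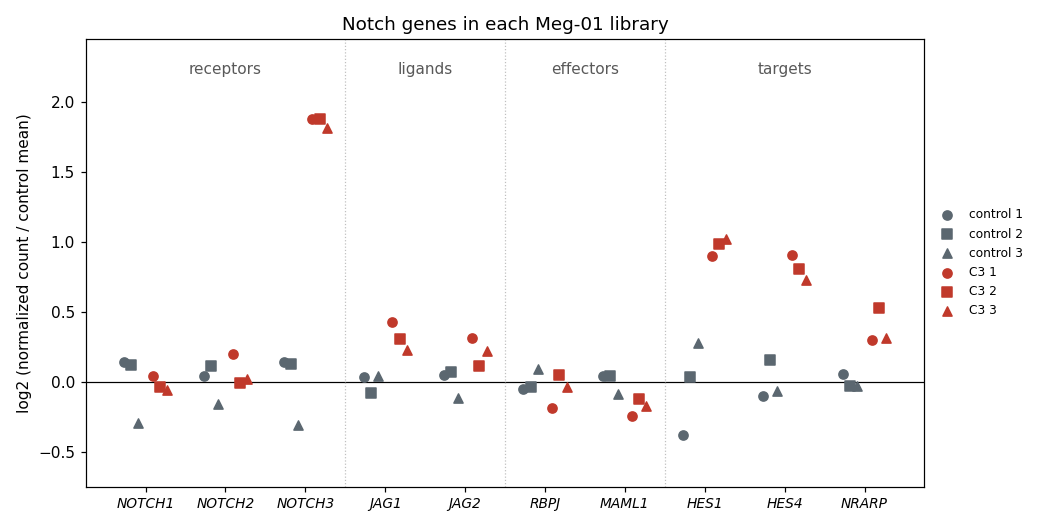
Normalized count of each of the 10 Notch genes in each library, as the log2 ratio to the mean of the 3 control libraries (line at 0). Grey symbols are control libraries and red symbols C3 libraries, with the symbol shape giving the replicate number, and NOTCH3, HES1 and HES4 show red symbols well above all grey ones.

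Of the receptors, NOTCH3 (ENSG00000074181) differed most. It is a receptor best known from vascular smooth muscle, and its gene spans chr19:15159038-15200995 (GRCh38, reverse strand). Its normalized count was 225, 223 and 165 in control replicates 1 to 3 and 749, 749 and 719 in C3 replicates 1 to 3. The C3 libraries lay within a narrow band, and the lowest of them was more than 3 times the highest control library. The fold change was 3.59, a log2 fold change of 1.85 (SE 0.098), at percentile 99.8 of all tested genes. NOTCH1 (ENSG00000148400), the receptor that drives T lymphocyte development, had normalized counts of 2910, 2871 and 2148 in control and 2715, 2576 and 2538 in C3 libraries. The groups overlapped, with control replicate 3 the lowest of all 6 libraries. The log2 fold change was -0.02 (SE 0.081). NOTCH2 (ENSG00000134250), a receptor with a role in marginal zone B cells, had normalized counts of 5329, 5605 and 4641 in control and 5964, 5157 and 5249 in C3 libraries. These groups overlapped too, and the log2 fold change was 0.07 (SE 0.072). Both small values changed sign with the libraries used. NOTCH1 was at -0.15 without control replicate 3 and at 0.07 without control replicate 1, and NOTCH2 was at -0.0030 without control replicate 3. Of the partial copies of NOTCH2, only NOTCH2NLA was matched in the count table. It had at most 15 counts in a library, and adding its counts to NOTCH2 left the log2 fold change at 0.07.

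Receptor levels were compared with each other per kilobase of merged exons. NOTCH3 had the lowest level per length of the 10 genes in both groups, at 1.17 ± 0.195 CPM (counts relative to the effective size of the library) per kilobase in control cells and 4.22 ± 0.099 in C3 cells (SD, n = 3). NOTCH2 stood at 16.7 ± 1.59 and 17.5 ± 1.42 on the same scale. Of the summed level of NOTCH1, NOTCH2, NOTCH3 and NOTCH4, NOTCH3 made up 4.16%, 4.01% and 3.75% in the control libraries and 12.2%, 13.4% and 12.8% in the C3 libraries. The shares of the groups did not overlap, with means of 3.97% ± 0.207 and 12.8% ± 0.603 (SD, n = 3). NOTCH2 kept the largest share, at 57.1% ± 2.07 in control and 53.0% ± 1.4 in C3 cells, and NOTCH1 held 38.6% ± 1.82 and 33.9% ± 0.710. The share of NOTCH3 depended on the length used, at 8.39% in C3 cells from raw counts and 10.2% from the length of the canonical transcript, an alternative chosen after seeing the data. Control replicate 3 was low for NOTCH1 and NOTCH3 alike: the log2 ratio of NOTCH3 to NOTCH1 within a library was -3.69, -3.69 and -3.70 in control and -1.86, -1.78 and -1.82 in C3 libraries.

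**Figure D2:**
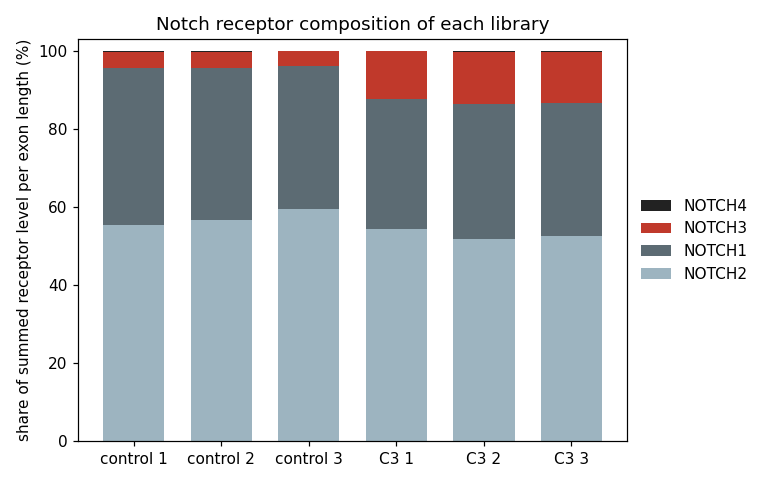
Share of each Notch receptor in the summed receptor level per exon length, in percent, with 1 stacked bar for each of the 3 control and 3 C3 libraries. The NOTCH3 segment takes 3.75% to 4.16% of the control bars and 12.2% to 13.4% of the C3 bars, and NOTCH4 stays under 1% of each bar.

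JAG1 (ENSG00000101384) and JAG2 (ENSG00000184916) encode membrane-bound ligands. The normalized count of JAG1 was 1221, 1128 and 1223 in control and 1603, 1472 and 1393 in C3 libraries. Every C3 library exceeded every control library. The log2 fold change was 0.32 (SE 0.069), a fold change of 1.25, short of the fold change gate. JAG2 had normalized counts of 2375, 2404 and 2115 in control and 2858, 2481 and 2669 in C3 libraries. Its groups did not overlap, but the gap between control replicate 2 and C3 replicate 2 was small. Its log2 fold change was 0.21 (SE 0.068), and 0.09 after correction for GC content, which is 64.1% in JAG2. With library size alone as the scaling, JAG1 was past the gates as well (log2 fold change 0.39), but the median of all genes stood at 0.08 there. GC correction likewise placed the median of all genes at -0.06, so the values given for either setting carry that common shift. JAG2 was the gene with the highest level per length of the 10 in both groups, at 19.3 ± 1.34 and 22.4 ± 1.58 CPM per kilobase of merged exons (SD, n = 3), although NOTCH2 led when canonical transcripts were used. JAG2 shares 7.33% of its exon bases with a gene of the same strand and JAG1 3.29% with a gene of the other strand. NRARP shares 2.76% with a gene of the other strand. Whether the counting used strand is not given in the sources used here, and part of these reads is therefore uncertain.

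RBPJ (ENSG00000168214), the DNA-binding protein that takes the signal to target genes, had normalized counts of 1718, 1730 and 1894 in control and 1562, 1840 and 1733 in C3 libraries. The groups overlapped, and the log2 fold change was -0.05 (SE 0.069). Under the other settings it ranged from -0.11 to 0.02. MAML1 (ENSG00000161021), the coactivator bound by the complex of receptor domain and RBPJ, had normalized counts of 1784, 1790 and 1636 in control and 1464, 1592 and 1539 in C3 libraries. It was the only one of the 10 genes with all C3 libraries below all control libraries. The log2 fold change of -0.18 (SE 0.065) was short of the fold change gate, and with library size alone as the scaling it was -0.11.

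HES1 (ENSG00000114315) and HES4 (ENSG00000188290) encode basic helix-loop-helix repressors, and NRARP (ENSG00000198435) a small ankyrin repeat protein that dampens Notch signalling by acting on the receptor domain. The stretches upstream of 2 of these targets are printed here because they carry the letters that RBPJ is known to bind, and those of NRARP, NOTCH3 and HEYL, a further HES-related target, for comparison. All are from RefSeq on GRCh38.p14, on the strand of the gene, 5′ to 3′, and capitals mark the letters TGGGAA or their reverse complement. The stretch of HES1 (chr3:194135898-194136147, forward strand) and those of HEYL (chr1:39639644-39639893), NRARP (chr9:137302272-137302521) and NOTCH3 (chr19:15200996-15201245), all on the reverse strand, are the 250 bases before the start site. In GENCODE release 44 no exon of the gene itself lies there. For HES4 (chr1:1000157-1000186, reverse strand) 30 bases around the match are shown, since a first exon of HES4 in GENCODE reaches into the 250 bases. That exon begins at base 1000172, inside the printed stretch, so part of the stretch and of the match is exon in GENCODE.
HES1: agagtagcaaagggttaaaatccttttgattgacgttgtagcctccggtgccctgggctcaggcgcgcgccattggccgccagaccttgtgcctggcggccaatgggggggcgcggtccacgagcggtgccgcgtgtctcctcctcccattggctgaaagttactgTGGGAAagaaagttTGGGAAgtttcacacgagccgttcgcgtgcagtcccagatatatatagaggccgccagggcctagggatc
HES4: gctggggcgagtgTGGGAAagaatgcggag
HEYL: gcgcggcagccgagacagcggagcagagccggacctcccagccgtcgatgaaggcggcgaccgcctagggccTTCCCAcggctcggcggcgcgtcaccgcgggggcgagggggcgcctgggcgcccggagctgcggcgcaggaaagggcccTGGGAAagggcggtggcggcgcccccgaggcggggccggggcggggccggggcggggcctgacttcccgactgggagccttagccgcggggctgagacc
NRARP: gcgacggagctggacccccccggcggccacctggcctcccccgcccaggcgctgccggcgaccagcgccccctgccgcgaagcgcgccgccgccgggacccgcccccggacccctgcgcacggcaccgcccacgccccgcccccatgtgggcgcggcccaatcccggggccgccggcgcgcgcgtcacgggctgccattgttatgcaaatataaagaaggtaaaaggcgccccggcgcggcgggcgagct
NOTCH3: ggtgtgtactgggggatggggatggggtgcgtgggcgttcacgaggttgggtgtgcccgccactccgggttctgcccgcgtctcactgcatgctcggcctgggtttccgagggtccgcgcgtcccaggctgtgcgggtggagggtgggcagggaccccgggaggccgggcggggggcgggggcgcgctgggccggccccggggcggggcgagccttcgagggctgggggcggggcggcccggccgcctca

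The motif searched on both strands of the 250 bases before each RefSeq start site was GTGGGAA, which contains the shorter core TGGGAA. The longer motif was found in 1906 of 35116 promoters (5.43%) and the core in 7321 (20.8%). All 10 Notch genes had a promoter entry, 14 entries in all with 5 of RBPJ, and GTGGGAA was present for 3 genes, HES1, HES4 and 1 entry of RBPJ. HES1 held it from base -85 to -79 before its RefSeq start site and HES4 from -77 to -71, both on the gene strand. The match of HES4 lies across the start of that gene in GENCODE, so it is upstream only by the RefSeq start site. The longest run shared by both stretches was tgTGGGAAagaa, 12 bases that start at -86 in HES1 and at -78 in HES4. HES1 held a further TGGGAA from -70 to -65. NRARP and NOTCH3 held neither motif in this window. Of 12 other target genes with a promoter entry, HES5, HEYL and HEY2 held GTGGGAA, and HES7 did not. A match is a run of letters and not evidence of binding in these cells.

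**Figure D3:**
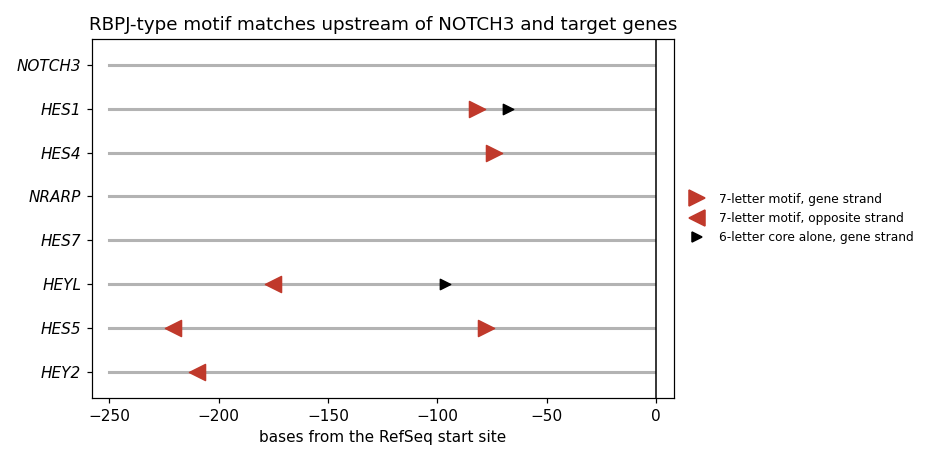
Matches of the motif GTGGGAA (large red arrowheads) and of the core TGGGAA outside it (small black arrowheads) in the 250 bases before the RefSeq start site of NOTCH3 and 7 target genes, with the distance from the start site in bases on the horizontal axis. Arrowheads pointing right are on the gene strand, and HES1 and HES4 each have 1 red arrowhead between -85 and -71.

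The normalized count of HES1 was 116, 154 and 183 in control and 281, 299 and 305 in C3 libraries. Control libraries spread widely, with control replicate 1 the lowest, whereas the C3 libraries lay close together and above all of them. The log2 fold change was 0.98 (SE 0.13), a fold change of 1.98, and ranged from 0.83 without control replicate 1 to 1.14 without control replicate 3. HES4 had normalized counts of 176, 211 and 180 in control and 354, 331 and 314 in C3 libraries. The groups were clearly apart. The log2 fold change was 0.81 (SE 0.109), a fold change of 1.75, and 0.61 after correction for GC content, which is 73.9% in HES4. Per kilobase of merged exons HES4 went from rank 6 to rank 3 of the 10 genes, at 9.09 ± 0.912 and 16.0 ± 0.971 CPM per kilobase (SD, n = 3). NRARP had normalized counts of 520, 490 and 490 in control and 616, 719 and 622 in C3 libraries. Every C3 library exceeded every control library, with C3 replicate 2 the highest. Its log2 fold change of 0.3826 (SE 0.0816) was barely past the gate of 0.3785. NRARP was past the gates in 9 of 15 other settings and short of them with limma-voom, with GC correction (0.30), and without control replicate 2 (0.37), control replicate 3 (0.37) or C3 replicate 2 (0.31). NOTCH3, HES1 and HES4 were past the gates in all 15.

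Within libraries, NOTCH3 differed by more than HES1 and HES4 did. The log2 ratio of HES4 to NOTCH3 was -0.35, -0.08 and 0.13 in control and -1.08, -1.18 and -1.20 in C3 libraries. The ratio of HES1 to NOTCH3 was -0.96, -0.53 and 0.15 in control and -1.41, -1.33 and -1.24 in C3 libraries. Neither ratio overlapped between the groups, and in control replicate 3, where NOTCH3 was lowest, HES1 was highest among the control libraries.

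**Figure D4:**
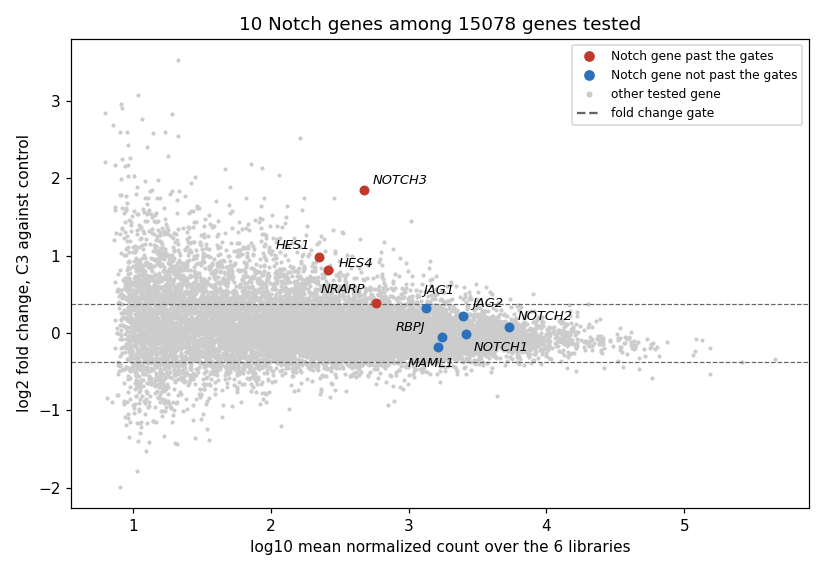
Log2 fold change of C3 against control (vertical axis) against the log10 mean normalized count over the 6 libraries for the 15078 genes tested (grey), with the 10 Notch genes labelled and the fold change gates as dashed lines. NOTCH3 at 1.85, HES1 at 0.98 and HES4 at 0.81 lie above the gate, NRARP lies on it, and the other 6 lie between the gates.

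Beyond these 10 genes, 76 further genes of the pathway were listed in 6 groups by role, and 70 of them were tested. The lists were made with earlier results of these data known. Counts and medians over them, here and below, therefore describe the lists and were not tested. Of these 70 genes, 10 were past the gates in the higher and 1 in the lower direction (14.3% and 1.43%), beside 5.05% and 1.47% of all tested genes. Their median log2 fold change was 0.09. Over the 63 of them with a mean normalized count of 50 or more, a limit applied to list medians after seeing the data, it was 0.07, beside -0.01 over all genes above that limit.

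Among 12 tested genes listed as other Notch targets, 4 rose, 0 fell, and the median log2 fold change was 0.41. HEY1, 1 of the 12, would not have reached the count filter on its control libraries alone, and over the 11 genes with a mean normalized count of 50 or more the median was 0.37. By edgeR's quasi-likelihood test 4 of the 12 had an unadjusted p-value below 0.05 in the higher and 0 in the lower direction, and DESeq2 called 4 and 0. Of all tested genes, 16.8% had such a p-value in the higher and 15.3% in the lower direction, which is the background for this and the following lists. CCND1, the gene of the G1 cyclin D1, had normalized counts of 1875, 1691 and 1650 in control and 2677, 2607 and 2645 in C3 libraries, a log2 fold change of 0.60 (SE 0.064, edgeR adjusted p-value 2.15e-07). It shares 10.4% of its exon bases with a gene of the other strand, and CDKN1A below shares 4.87%. IL7R, the gene of the interleukin 7 receptor and a Notch target in T cell precursors, had 98.9, 79.5 and 83.6 in control and 190, 212 and 190 in C3 libraries, a log2 fold change of 1.17 (SE 0.14, edgeR adjusted p-value 1.35e-06). CDKN1A, the gene of the cell cycle inhibitor p21, had 763, 751 and 779 in control and 1188, 1024 and 1093 in C3 libraries, a log2 fold change of 0.53 (SE 0.072, edgeR adjusted p-value 8.19e-06). In each of these 3 genes every C3 library exceeded every control library. The fourth was HES7, a HES family repressor known from the segmentation clock and named here after its values were seen. It had 50.9, 49.8 and 62.1 in control and 113, 149 and 129 in C3 libraries, a log2 fold change of 1.27 (SE 0.173, edgeR adjusted p-value 8.26e-06).

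Other targets did not pass the gates. HEYL, which holds the motif, had normalized counts of 91.1, 111 and 125 in control and 124, 124 and 119 in C3 libraries, and its groups overlapped (log2 fold change 0.17, SE 0.151, edgeR adjusted p-value 0.483). MYC, a direct Notch target in T cell leukaemia, was abundant and had a log2 fold change of 0.11 (SE 0.063, edgeR adjusted p-value 0.237). HES6, a relative of HES1 that is not itself a typical Notch target, had a log2 fold change of 0.15 (SE 0.072, edgeR adjusted p-value 0.165). HES5, HEY2, DTX1 and PTCRA did not reach the count filter, with at most 5 counts in any library for HES5. HES2 and HES3 were also under it.

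Of 23 tested nuclear cofactors, 4 rose (17.4%) and 0 fell, with a median log2 fold change of 0.09. An unadjusted edgeR p-value below 0.05 was found for 6 in the higher and 2 in the lower direction, where DESeq2 called 3 and 0. TLE2 and TLE1 encode Groucho-type corepressors that HES proteins recruit. TLE2 had normalized counts of 125, 122 and 131 in control and 288, 252 and 256 in C3 libraries, a log2 fold change of 1.07 (SE 0.12, edgeR adjusted p-value 4.62e-07). TLE1 had 248, 244 and 223 in control and 356, 364 and 365 in C3 libraries, a log2 fold change of 0.60 (SE 0.097, edgeR adjusted p-value 8.1e-05). Both were higher in all C3 libraries than in any control library. SPEN, the gene of a corepressor that binds RBPJ in the absence of signal, had 2512, 2495 and 1974 in control and 2971, 3185 and 3317 in C3 libraries, a log2 fold change of 0.44 (SE 0.076, edgeR adjusted p-value 1.74e-04). Control replicate 3 was its lowest library, and without it the log2 fold change was 0.34, short of the fold change gate. The fourth was MAML2, a Mastermind coactivator like MAML1, named after its values were seen. It was scarce, with 9.80, 11.7 and 14.3 in control and 35.3, 20.1 and 35.3 in C3 libraries, a log2 fold change of 1.35 (SE 0.355, edgeR adjusted p-value 0.00805). It missed the gates in 7 of 14 other settings, DESeq2 and limma-voom among them, and whenever any library but C3 replicate 2 was left out (log2 fold change 1.20 to 1.49, edgeR adjusted p-value 0.0142 to 0.058).

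Of 14 tested genes of trafficking and ubiquitin transfer, 2 rose (14.3%) and 1 fell (7.14%), with a median log2 fold change of 0.03. AAK1, a kinase of clathrin adaptors, had normalized counts of 476, 480 and 466 in control and 678, 708 and 729 in C3 libraries, a log2 fold change of 0.57 (SE 0.076, edgeR adjusted p-value 5.87e-06). EPN2, an epsin of the family needed for ligand endocytosis, had 349, 356 and 353 in control and 483, 490 and 435 in C3 libraries, a log2 fold change of 0.41 (SE 0.087, edgeR adjusted p-value 0.00149). It fell short of the fold change gate without C3 replicate 2 (0.38) and after GC correction (0.36), where the median of all genes stood at -0.06, and 26.5% of its exon bases overlap a gene of the other strand. DTX3L, a Deltex-type ubiquitin ligase, had 323, 318 and 365 in control and 217, 207 and 218 in C3 libraries, a log2 fold change of -0.65 (SE 0.103, edgeR adjusted p-value 6.71e-05).

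Of 8 tested genes for receptor cleavage, 0 passed the gates in either direction (median log2 fold change -0.07). In the lower direction 3 had an unadjusted edgeR p-value below 0.05, in the higher 0, and DESeq2 called 0. NCSTN and APH1A, subunits of gamma-secretase, were among them and are named after their values were seen. In both, every C3 library was below every control library. NCSTN had normalized counts of 1504, 1585 and 1533 in control and 1302, 1156 and 1222 in C3 libraries, a log2 fold change of -0.33 (SE 0.066, edgeR adjusted p-value 7.89e-04). It missed the fold change gate and was past it after GC correction (-0.38), a move no larger than that of the median of all genes, which stood at -0.06 there. APH1A had a log2 fold change of -0.18 (SE 0.063, edgeR adjusted p-value 0.0405), and 14.1% of the exon bases of APH1A overlap a gene of the other strand. Of 7 tested genes for receptor maturation, among them the Fringe enzymes LFNG, MFNG and RFNG, 0 passed the gates (median log2 fold change -0.09), 1 had an unadjusted edgeR p-value below 0.05 in the higher direction and 0 in the lower, and DESeq2 called 0. Of 6 other receptors and ligands, 0 passed, 1 had an unadjusted edgeR p-value below 0.05 in the higher direction and 0 in the lower, and DESeq2 called 0. That gene was DLL1, a Delta-like ligand that shares 9.69% of its exon bases with a gene of the other strand. It had 62.7, 72.1 and 63.3 in control and 92.2, 91.9 and 106 in C3 libraries (log2 fold change 0.55, SE 0.171, edgeR adjusted p-value 0.0219). The median log2 fold change of this list, 0.46, lay between those of the scarce genes DLK1 and NOTCH4. NOTCH4 and DLL4 would not have reached the count filter on their control libraries alone, and only 2 of the 6 genes had a mean normalized count of 50 or more, with a median of 0.23.

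**Figure D5:**
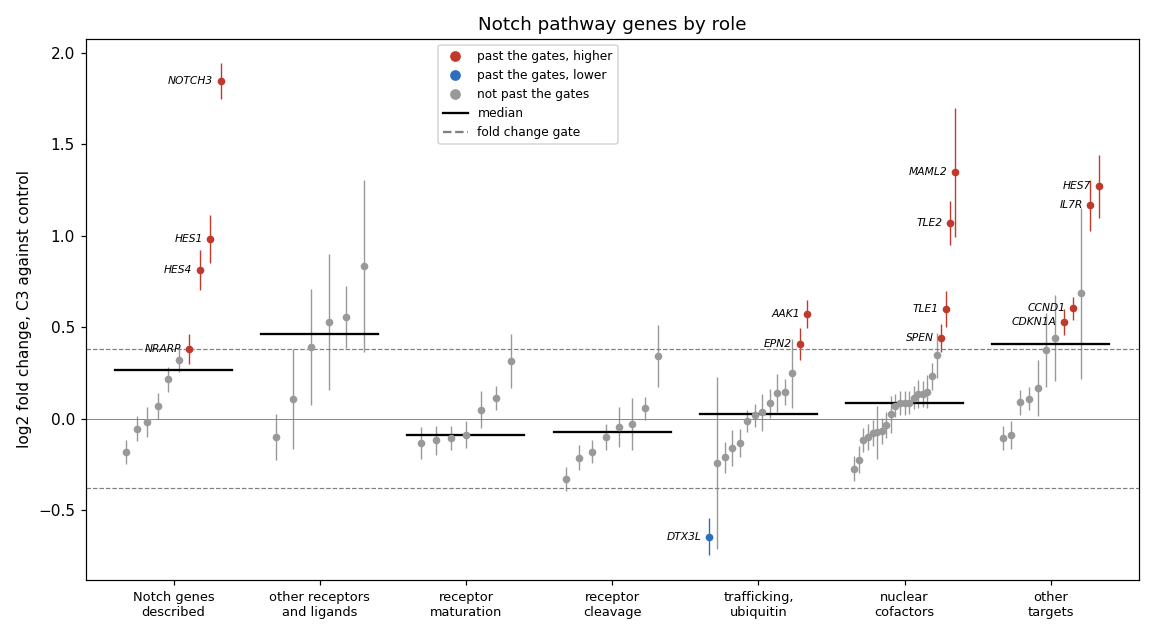
Log2 fold change of C3 against control with its SE (bars) for the 10 Notch genes and for the 70 tested pathway genes of the 6 role lists, sorted within each list. Red and blue points passed the gates in the higher and lower direction, grey points did not, the black line is the median of each list. Called genes were 4 of 12 other targets, 4 of 23 nuclear cofactors and 3 of 14 trafficking and ubiquitin genes.

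Of the 20 nearest tested neighbours of the 10 Notch genes, 1 on each side, 2 were past the gates in the higher and 1 in the lower direction, beside 5.05% and 1.47% of all tested genes. ILVBL, at 33.3 kb from NOTCH3, had a log2 fold change of -0.22 (SE 0.072) and was not past the gates. HES4 has the interferon-induced gene ISG15 at 0.966 kb, with a log2 fold change of -0.37 (SE 0.086), opposite in sign to that of HES4. KLHL17, on its other side at 33.2 kb, had 0.44 (SE 0.094, edgeR adjusted p-value 0.00161). NUDT14, next to JAG2, had -0.41 (SE 0.092, edgeR adjusted p-value 0.00239), and ENSG00000228401, 102 kb from NOTCH1, had 1.07 (SE 0.24, edgeR adjusted p-value 0.0022).

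Genes were also compared by their log2 values over the 6 libraries, taken relative to the gene's own mean over the control libraries. This compares the course over the libraries and not the level. Among the genes nearest to NOTCH3 in this way, where the mean normalized count was 50 or more, were RGS9, LAMA1, NID1 and LRRC32. Their root mean square distance from NOTCH3 was 0.117, 0.142, 0.183 and 0.192 on this relative log2 scale. RGS9 encodes a regulator of G protein signalling, LAMA1 and NID1 encode basement membrane proteins and LRRC32 encodes the TGF-beta docking protein GARP. For HES4 the nearest on the same relative scale were TTN, ETV4 and ADCYAP1R1, at 0.0618, 0.0635 and 0.0717. Exon bases shared with genes of the other strand made up 11.1% in LAMA1 and 17.7% in TTN.

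Markers were read for the cell type of the label and for other cells in which Notch genes are active. Of 13 megakaryoblast markers, 12 reached 1 CPM, led by ITGA2B, and their sum was 2630, 2640 and 2550 CPM in control and 2640, 2480 and 2490 in C3 libraries. Of the 12 tested, 0 were past the gates in the higher direction and 1 in the lower (8.33%), beside 5.05% and 1.47% of all tested genes. This was GP1BA, a platelet adhesion receptor subunit, with a log2 fold change of -0.49 (SE 0.061, edgeR adjusted p-value 2.17e-06). NFE2 at -0.38 and GFI1B at 0.35, both transcription factors of the lineage, were short of the fold change gate (edgeR adjusted p-values 1.89e-04 and 3.29e-04). ITGB3, the integrin partner of ITGA2B, was also short of the gates at 0.34 (SE 0.113, edgeR adjusted p-value 0.0325), with every C3 library above every control library, and is uncertain because 33.2% of its exon bases overlap a gene of the same strand. These 4 genes are named after their values were seen, and their part in the Notch values was not tested. PF4, a granule gene of mature megakaryocytes, was listed at 0 in every library, but 52.1% of its exon bases overlap a gene of the same strand, so this 0 is uncertain. Mural cell markers, of cells in which NOTCH3 is typical, summed to between 3.60 and 4.68 CPM, led by ACTA2, with CNN1 and DES at or near 0. T-lymphoid markers summed to 286, 287 and 271 in control and 274, 261 and 262 in C3 libraries, nearly all of it CD4, with CD3D, CD3G and CD8A at or near 0. Endothelial markers summed to 265, 274 and 275 in control and 312, 284 and 282 in C3 libraries, led by ESAM, with CLDN5 near 0. Of 3 genes of that list named after their values were seen, TEK was past the gates (log2 fold change 0.59, edgeR adjusted p-value 2.44e-04), whereas CDH5 at 1.01 (adjusted p-value 0.0315) and ROBO4 at -0.64 (adjusted p-value 0.146) were not. CDH5 had 7 counts in control replicate 3 and would not have reached the count filter on its control libraries alone. The part of this list in the Notch values was not tested. Erythroid markers summed to 23.1, 21.8 and 21.0 in control and 22.1, 21.2 and 25.3 in C3 libraries, led by SLC4A1. Members of that list lay apart in opposite directions, and 2 are named after their values were seen. HBA2, an alpha-globin gene, had a log2 fold change of -0.68 (SE 0.213, edgeR adjusted p-value 0.0244) with every C3 library below every control library, and is uncertain because HBA1 is a near-identical copy and 19.2% of the exon bases of HBA2 overlap a gene of the other strand. ALAS2, the gene of the erythroid enzyme that starts haem synthesis, had 0.56 (SE 0.19, edgeR adjusted p-value 0.0372) with every C3 library above every control library. Neither was past the gates, and their part in the Notch values was not tested.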

How the data were processed

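RNAseq of Meg-01 cells gave 6 libraries, 3 control and 3 C3. The authors deposited whole-number counts for each gene, made with fastp, STAR (2.6.1d) and featureCounts (1.5.0-p3) on GRCh38, per the submitters' processing notes. Which annotation release and strand setting they used is not given in the sources used here. Symbols came from GENCODE release 44 (58207 of 58735 identifiers). Genes reaching 10 counts in 3 or more libraries were scaled by TMM factors and compared by edgeR's quasi-likelihood test (edgeR 4.0.16, limma 3.58.1, R 4.3.3) with Benjamini-Hochberg adjustment over all 15078 genes. The SE was taken from the F statistic. The method was tested on simulated data. The 10 genes and all lists were chosen with earlier results of these data known. Named were the 10 genes, at most 3 called genes per direction and pathway list with the smallest p-values, the nearest neighbours, the genes most alike to NOTCH3 (5) and HES4 (3), relatives past the filter, and the leading gene of each marker list; 3 genes under these rules or lists are not reported here. Alternatives were DESeq2 (1.42.0), RLE factors, library size alone, other count filters, limma-voom, a replicate block, GC correction (loess, span 0.3, pseudocount 0.5), leaving out each library, looser gates, NOTCH2 with its copies and, chosen after seeing the data, canonical transcript length and list medians over genes with a mean count of 50 or more.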

Additional observations from a re-analysis of the deposited data

How the results depend on the processing

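At an adjusted p-value below 0.05 with no fold change gate, edgeR called 1658 genes higher and 1323 lower, against 761 and 222. Genes called lower numbered 100 with library size alone, 540 with GC correction and 522 with GC correction and replicate block, and between 129 (without C3 replicate 3) and 340 (without C3 replicate 1) with each library left out. Pathway list genes called lower numbered 2 with GC correction, 2 with GC correction and replicate block, and 6 at an adjusted p-value below 0.05 with no fold change gate, against 1. With those looser gates 6 of the 10 Notch genes were past in the higher and 1 in the lower direction, against 4 and 0. The cause was not tested.

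With the replicate number as a replicate block, 909 genes were called higher and 268 lower, and 10 and 1 pathway list genes. Correlations of the deviations of same-numbered libraries were 0.0114, -0.0419 and 0.0292, so no deviation shared by replicate number was seen. Whether the libraries were set up in pairs cannot be told from these values.

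Of 151 log2 fold changes of the 10 Notch genes under the alternatives, 144 kept their sign and 146 stayed within the spread of the replicates. NOTCH3 lay between 1.72 and 1.94, HES1 between 0.83 and 1.14, HES4 between 0.61 and 0.90, and NRARP between 0.29 and 0.46. Of 135 values of the 9 named pathway genes, 131 were still past the gates. HES7 and MAML2 are not among these 9. HES7 was past the gates in 15 of 15 settings and MAML2 in 7 of 14. NOTCH4, DLL4, HEY1 and MAML2 were scarce, and the effect of depth on them was not tested.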
